A study of Rattus norvegicus with 82 samples.

Results

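*Myo3b*, *Ccdc82* and *Ccdc125* are 3 of the 17337 genes measured by RNA sequencing in rat cardiomyocytes, and they were followed across all 12 groups of the study. They were selected on their normalized counts: in earlier results of these data, their libraries in the pressure-loaded left ventricle (LV) lay apart from those of sham-operated rats: *Myo3b* in the failing LV and both *Ccdc* genes in the compensated LV. The comparisons and libraries that chose them are therefore given as descriptions without a test. All 3 genes were among the 11954 genes with enough counts to be tested.

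Cardiomyocytes were isolated by collagenase perfusion and centrifugation from the right ventricle (RV) and LV of 41 rats, giving 82 libraries, and every rat was an F1 child of a female Wistar Kyoto and a male Lewis rat. A clip around the aorta (AOB) loads the LV, a clip around the pulmonary artery (PAB) loads the RV, and the clips were not tight when placed on weanling animals, so the load rose with growth. Sham animals had surgery without a clip. The letter H stands for the compensated, hypertrophic stage and F for the decompensated, failing stage. At stage H there were 7 Sham-H, 6 AOB-H and 6 PAB-H rats, all labelled 11 weeks old and 7 weeks after surgery. At stage F there were 9 Sham-F and 7 AOB-F rats labelled 31 weeks old and 26 weeks after surgery, and 6 PAB-F rats labelled 28 weeks old and 22 weeks after surgery. Both sexes were in every group, with between 2 and 4 males. The PAB-F rats were thus younger than their sham controls by the labels, and the study's own text gives other ages, so age and band cannot be told apart there.

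*Myo3b* encodes a class III myosin, an actin-based motor that carries a kinase domain and is best known from actin-filled protrusions of sensory cells in the inner ear and the retina, where it works with espins and with MORN4. *Ccdc82* and *Ccdc125* encode proteins named only for a coiled coil, a rod of intertwined helices through which proteins pair. The role of CCDC82 is poorly known, and CCDC125 has been linked to cell motility. A pressure load makes cardiomyocytes grow and shift their gene program before the ventricle fails.

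The promoters of the 3 genes are shown because the genes have no shared family or pathway, so that the start of each gene is the one stretch that can be set side by side. Each runs from 250 bases before to 50 bases after the start in RefSeq on the GRCr8 build, on the plus strand: *Myo3b* at chr3:75227767-75228066, *Ccdc82* at chr8:18509175-18509474 and *Ccdc125* at chr2:33549576-33549875. The counts were made on another build (Rnor6.0), so no count is placed on these coordinates. Capitals mark a GC box (GGGCGG) or an ETS core (CCGGAA) on either strand.
Myo3b: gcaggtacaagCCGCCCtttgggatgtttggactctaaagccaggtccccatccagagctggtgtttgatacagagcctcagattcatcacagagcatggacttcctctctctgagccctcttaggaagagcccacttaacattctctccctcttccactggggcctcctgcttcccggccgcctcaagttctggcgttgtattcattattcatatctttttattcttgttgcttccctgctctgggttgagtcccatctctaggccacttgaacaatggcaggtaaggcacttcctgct
Ccdc82: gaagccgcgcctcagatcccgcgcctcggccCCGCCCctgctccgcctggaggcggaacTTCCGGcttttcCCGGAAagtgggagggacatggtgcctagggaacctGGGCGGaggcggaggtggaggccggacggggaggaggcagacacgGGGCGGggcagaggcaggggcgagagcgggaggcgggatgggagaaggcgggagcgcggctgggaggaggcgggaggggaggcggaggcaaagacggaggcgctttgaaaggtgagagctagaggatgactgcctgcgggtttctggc
Ccdc125: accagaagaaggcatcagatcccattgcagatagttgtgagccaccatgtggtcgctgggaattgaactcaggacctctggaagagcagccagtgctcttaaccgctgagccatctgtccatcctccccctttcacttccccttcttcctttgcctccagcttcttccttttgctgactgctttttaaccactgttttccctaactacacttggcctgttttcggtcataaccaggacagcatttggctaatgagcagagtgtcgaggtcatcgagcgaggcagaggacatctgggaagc
The *Ccdc82* promoter stands apart from the others in base composition, with 71% G or C and 27 CpG dinucleotides, at the 93.4 percentile of G and C among 33469 promoters of the same length. The *Myo3b* and *Ccdc125* promoters each held 51.3% G or C (49.3 percentile), with 4 and 6 CpG against a median of 7 over all promoters. A GC box, the site bound by SP factors, occurred 3 times in *Ccdc82* and once in *Myo3b*, and 33.1% of all promoters held at least 1. An ETS core occurred 2 times in *Ccdc82*, in 15% of all promoters. The E box CANNTG, not shown in capitals, occurred 5 times in *Ccdc125* and 1 time in *Myo3b*, in 72.1% of all promoters. All motifs were searched on both strands. None of the 3 windows held TATAAA (in 14.2% of all promoters) or the CCAAT box (37.5%). The letters of the MCAT element of muscle genes, CATTCC, were in none of them either (14.2%). For the AP-1 site the search was for TGANTCA (7.33%), with no match. The same holds for the GATA site, searched as AGATAA (11.6%). None of the GC boxes overlapped an ETS core.

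The depth of a library, as the sum of its gene counts, was 6675287 at the lowest and 19665439 at the highest. No pair of libraries agreed within sampling noise (smallest chi-square per gene 4.04). Of the labelled cell type, 9 ventricular cardiomyocyte genes took 6.07% to 14.3% of the counts of a library, against 0.0203% to 0.339% for 10 fibroblast genes, 0.0643% to 0.529% for 7 endothelial genes and 0.00144% to 0.0251% for 8 macrophage genes. Of the defining markers of other cells, those for neutrophils (*S100a8*, *S100a9*, *Mpo* and *Camp*) were at 0 in the median library. So was 1 of the 10 fibroblast genes (*Col1a2*) and 1 of the 3 red blood cell genes (*Hba1*). The remaining genes of both lists were above 0 in the median library, and the red blood cell genes took 0.00031% to 0.0264%. One library stands apart in every result on LV AOB-H below: replicate 6 had the lowest total of all (6675287), endothelial genes at 0.529% against 0.132% to 0.172% in the other 5 replicates, fibroblast genes at 0.188% against 0.0349% to 0.0628%, red blood cell genes at 0.0202% against 0.000531% to 0.000963%, and cardiomyocyte genes at 8.88% against 12.1% to 12.7%. Nothing in the labels says whether libraries were processed in separate batches.

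Per gene length, *Myo3b* was the most strongly expressed of the 3, with a median FPKM of 4.70 over all libraries, followed by *Ccdc125* (1.21) and *Ccdc82* (0.923). In counts, *Myo3b* ranged from 26 to 615 reads per library and lay at the 49.3 percentile of mean normalized counts among the genes tested. *Ccdc82* ranged from 10 to 121 reads and *Ccdc125* from 14 to 152, at the 18.3 and 19 percentiles. Both *Ccdc* genes are thus weakly expressed here and the counting error of a single library is large. Normalized counts below are raw counts scaled to an effective library size of 13279120.

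*Myo3b* had its 5 highest group means in the RV. Its mean normalized count was highest in RV Sham-F (513 ± 141, SD, n = 9), followed by RV AOB-H (390 ± 129, n = 6), RV AOB-F (371 ± 206, n = 7), RV Sham-H (362 ± 117, n = 7) and RV PAB-F (277 ± 222, n = 6). Then came LV PAB-F (240 ± 127, n = 6), LV Sham-F (236 ± 55.9, n = 9), RV PAB-H (223 ± 49.1, n = 6), LV Sham-H (181 ± 78.4, n = 7), LV AOB-H (174 ± 72.8, n = 6) and LV PAB-H (171 ± 56.6, n = 6). It was lowest in LV AOB-F (77.5 ± 45.4, n = 7). Every step between neighbours in this order was smaller than the larger of both SDs, except the last one, from LV PAB-H down to LV AOB-F.

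**Figure D1:**
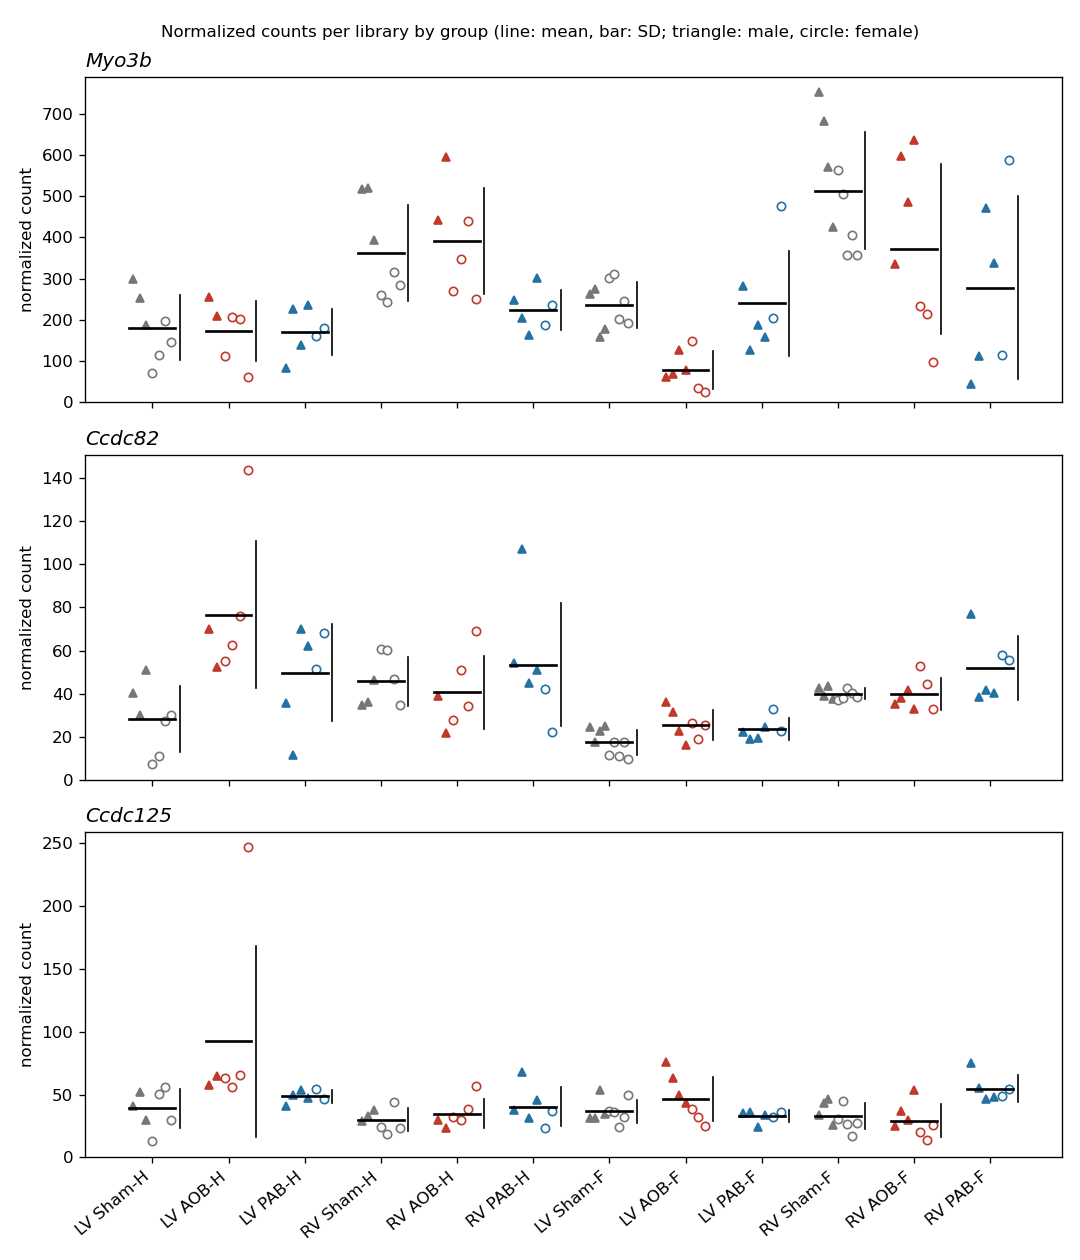
Normalized counts (linear axes from 0) of *Myo3b*, *Ccdc82* and *Ccdc125* in all 82 libraries, by ventricle and condition; triangles are males, open circles females, the line is the group mean and the bar its SD. LV AOB-F holds the lowest *Myo3b* values (24.5 to 149), and replicate 6 of LV AOB-H is far above its group in *Ccdc82* (144) and *Ccdc125* (247).

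In the failing LV upon AOB, the comparison that chose the gene, the 7 libraries of *Myo3b* were at 62.3, 67.8, 126, 79.3, 149, 34.4 and 24.5 normalized counts. The 9 LV Sham-F libraries were at 262, 275, 158, 178, 302, 310, 201, 245 and 191. All AOB-F libraries lay below all sham libraries, a pattern that 0.0251% of all genes tested show in this direction. The fold was 0.328, a log2 change of -1.61, and in the same comparison 12.9% of all genes were called at an adjusted p under 0.05. Both facts describe the choice of the gene and carry no further weight. Since these are bulk samples, fewer cells with *Myo3b* RNA and less of it per cell cannot be told apart. The share of fibroblast genes was 0.0824% to 0.172% in LV AOB-F against 0.0485% to 0.145% in LV Sham-F, that of macrophage genes 0.00462% to 0.0251% against 0.0039% to 0.015%, and that of ventricular cardiomyocyte genes 6.07% to 10.6% against 8.53% to 10.3%. The share of 4 atrial cardiomyocyte genes (*Myl7*, *Myl4*, *Sln* and *Nppa*, of which *Nppa* is also known to rise in loaded ventricles) was 0.0426% to 0.245% (median 0.147%) against 0.0154% to 0.0979% (median 0.023%). In replicates 1 to 7 of LV AOB-F the atrial share was 0.245%, 0.23%, 0.236%, 0.147%, 0.0426%, 0.124% and 0.136%. Replicate 5, highest in *Myo3b*, thus had the lowest share. Replicate 3, the next highest in *Myo3b*, had a high share, and replicates 6 and 7, the lowest in *Myo3b*, did not have the highest. In the same order the macrophage share was 0.0171%, 0.0233%, 0.0106%, 0.0127%, 0.00462%, 0.0224% and 0.0251%. It was thus lowest in replicate 5 and highest in replicate 7. The cardiomyocyte share was highest in replicate 5 (10.6%) and lowest in replicates 6 and 7 (6.07% and 6.46%). The fibroblast share was lowest in replicate 5 (0.0824%) but not highest in replicates 6 and 7 (0.105% and 0.137%). The part of these shares in the result was not tested.

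In the other banded ventricles, whose libraries did not choose the gene, *Myo3b* did not pass the test. In RV PAB-F it was spread widely, at 44.3, 112, 471, 337, 114 and 587, against 356 to 752 (median 506) in RV Sham-F. Thus 4 of 6 libraries lay below all sham libraries, while replicates 3 and 6 were among them. The log2 change was -0.89 (SE 0.35, edgeR adjusted p = 0.0804, 11.1% of all genes called). Of 15 libraries left out in turn, only the 2 high ones gave a call (-1.10 without replicate 3, edgeR adjusted p = 0.0406, and -1.25 without replicate 6, edgeR adjusted p = 0.0155). Leaving out a high banded library makes the fall larger, so these calls lend it no support. Over all 15 the log2 change ran from -1.25 to -0.67, with edgeR adjusted p values up to 0.312. The share of the atrial genes was 0.859%, 0.167% and 0.102% in replicates 1, 2 and 5, the lowest in *Myo3b*. It was 0.011%, 0.0324% and 0.00758% in replicates 3, 4 and 6. Of these, replicate 4 (337) also lay below all sham libraries, so this is not the split into 4 and 2 libraries given above. Replicate 1 also had the highest fibroblast share of its group (0.236% against 0.0359% to 0.0906%). The part of these shares in the result was not tested.

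In RV PAB-H the *Myo3b* libraries were at 247, 204, 164, 301, 188 and 237, against 244 to 520 (median 315) in RV Sham-H. The log2 change of -0.70 (SE 0.36) did not pass over all groups (edgeR adjusted p = 0.267, 4.5% of all genes called). It did in 1 of 6 other settings, a fit of those groups alone (adjusted p = 0.0322), and with none of 13 libraries left out in turn. Taken within each sex, a look that was added after the values were seen, the 4 male PAB-H libraries (164 to 301) lay below the 3 male sham libraries (393 to 520), and the 2 female ones (188 to 237) below the 4 female sham libraries (244 to 315). Of all genes tested 3.53% show this in the same direction. Since the values prompted this look, it is a description without a test and lends the fall no support. The atrial share was 0.0149% to 0.0413% in RV PAB-H against 0.0019% to 0.00466% in RV Sham-H, and its part in the result was not tested.

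*Myo3b* did not pass in the ventricle opposite to the band either. RV AOB-F ranged from 96.4 to 635 (median 335) and differed from RV Sham-F by -0.47 on the log2 scale (SE 0.33, edgeR adjusted p = 1, 0.0669% of all genes called). The LV upon PAB-F ranged from 127 to 477 (median 197), a difference from LV Sham-F of 0.02 (95% interval -0.66 to 0.70), with the sham libraries shared with the choice of the gene. In that comparison edgeR called 0% of all genes (454 genes at an unadjusted p under 0.05, and 0 by DESeq2). At stage H the values were -0.04 in LV AOB-H, 0.11 in RV AOB-H and -0.07 in LV PAB-H, with 95% intervals from -0.77 to 0.69, -0.60 to 0.82 and -0.80 to 0.65. In RV AOB-H edgeR called 0% of all genes (171 at an unadjusted p under 0.05, and 0 by DESeq2).

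Both *Ccdc* genes were highest in the LV of AOB-H, in the comparison that chose them. *Ccdc82* was at 70.1, 52.6, 55.3, 62.4, 75.9 and 144 in LV AOB-H, and at 40.2, 30.2, 50.9, 7.24, 11.1, 27.5 and 30.1 in LV Sham-H. All banded libraries lay above all sham libraries, the nearest pair being 52.6 and 50.9, and 0.176% of all genes show this in the same direction. The fold was 2.74 (log2 1.45), and 2 genes of 11954 (0.0167%) were called in this comparison. *Ccdc125* was at 57.7, 64.6, 63, 56.5, 65.3 and 247 against 41.2, 52.5, 30.1, 13.2, 50.3, 56.1 and 30.1, again without overlap (56.5 and 56.1 being the nearest), with a fold of 2.34 (log2 1.23).

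Replicate 6 carried much of both values. Without it the mean of *Ccdc125* in LV AOB-H went from 92.3 ± 75.8 (n = 6) to 61.4 ± 4.06 (n = 5) and the log2 change from 1.23 to 0.67. The mean of *Ccdc82* went from 76.8 ± 34.3 to 63.3 ± 9.79 and its log2 change from 1.45 to 1.19. In the same library *Myo3b* was the lowest of its group (60.1 against 111 to 255). The endothelial, fibroblast and red blood cell shares of this library were higher as well. The endothelial share was 0.132% to 0.172% in the other 5 libraries and 0.109% to 0.295% in LV Sham-H. LV Sham-H replicates 4 and 5 had the highest shares of their group (0.295% and 0.219%) and its lowest cardiomyocyte shares (10.2% and 9.29%). They were its lowest in *Ccdc82* (7.24 and 11.1), and at 13.2 and 50.3 in *Ccdc125*. LV PAB-H replicate 2, at 0.278%, was at 11.5 in *Ccdc82* and 49.8 in *Ccdc125*. The part of these shares in the values was not tested.

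**Figure D2:**
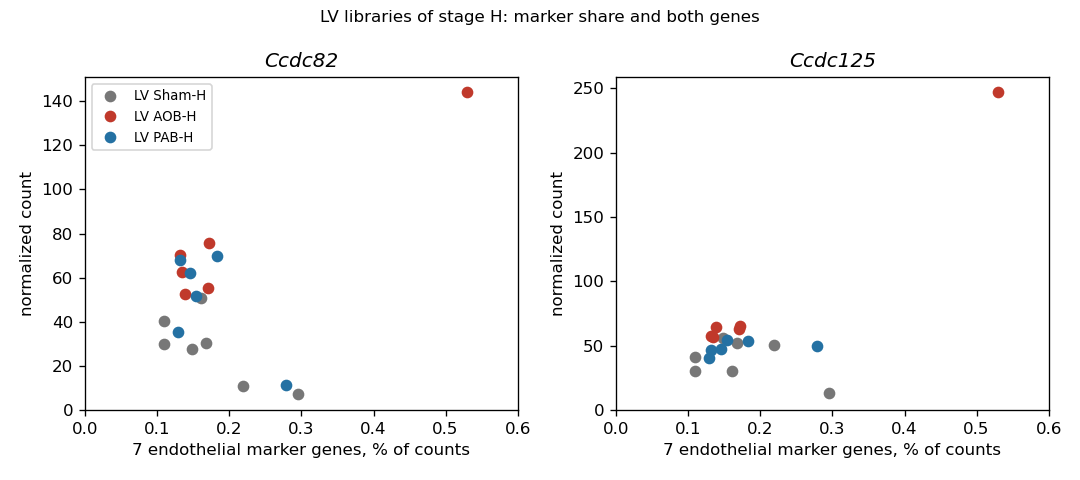
Normalized counts of *Ccdc82* and *Ccdc125* against the summed share of 7 endothelial marker genes (percent of counts) in the LV libraries of stage H, coloured by condition. One AOB-H library sits at 0.529% with 144 and 247 normalized counts, and the other 5 lie at 0.132% to 0.172%. The sham libraries at 0.295% and 0.219% were at 7.24 and 11.1 in *Ccdc82* and at 13.2 and 50.3 in *Ccdc125*. The AOB-H and sham libraries were used to choose both genes.

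Of the other banded groups, *Ccdc82* had its largest change in LV PAB-H, with libraries at 11.5 to 70 (median 56.8) against 7.24 to 50.9 (median 30.1) in the sham group that also chose the gene. Of 6 libraries 4 lay above all sham libraries, and the log2 change was 0.84, in a comparison where edgeR called 0% of all genes (305 at an unadjusted p under 0.05, and 0 by DESeq2). It is given without a test, since it shares the sham libraries. At stage F LV AOB-F was at 16.2 to 36.3 (median 25.4) and LV Sham-F at 9.83 to 25.1 (median 17.6), a log2 change of 0.52 (SE 0.28, edgeR adjusted p = 0.211). In LV PAB-F it was 0.41 (SE 0.29, edgeR adjusted p = 1). In the RV the 4 changes were between -0.18 and 0.38, with edgeR adjusted p values from 0.372 to 1, and RV AOB-F (32.9 to 53) overlapped with RV Sham-F (37.2 to 43.7), with a 95% interval of the difference from -0.53 to 0.53.

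In the failing RV upon PAB the libraries of *Ccdc125* were at 75.5, 55, 46.6, 48, 48.8 and 54.6. RV Sham-F was at 17.2 to 46.8 (median 30.8), so that 5 of 6 banded libraries lay above all 9 sham libraries and the remaining one (46.6) just below the highest. The log2 change of 0.72 (SE 0.26) missed the threshold over all groups (edgeR adjusted p = 0.0603, 11.1% of all genes called). It passed in 1 of 6 other settings, a fit of those groups alone (0.73, adjusted p = 0.0180). Of 15 libraries left out in turn, only RV Sham-F replicate 3, the highest sham library, gave a call (0.80, edgeR adjusted p = 0.0437). Over all 15 the log2 change ran from 0.61 to 0.80, with edgeR adjusted p values up to 0.237. Replicate 1, the highest, was also the library with the highest fibroblast share (0.236%) and endothelial share (0.201% against 0.088% to 0.151%) of its group, and their part in the result was not tested. In the remaining banded groups the changes of *Ccdc125* were between -0.18 and 0.43, without a call.

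**Figure D3:**
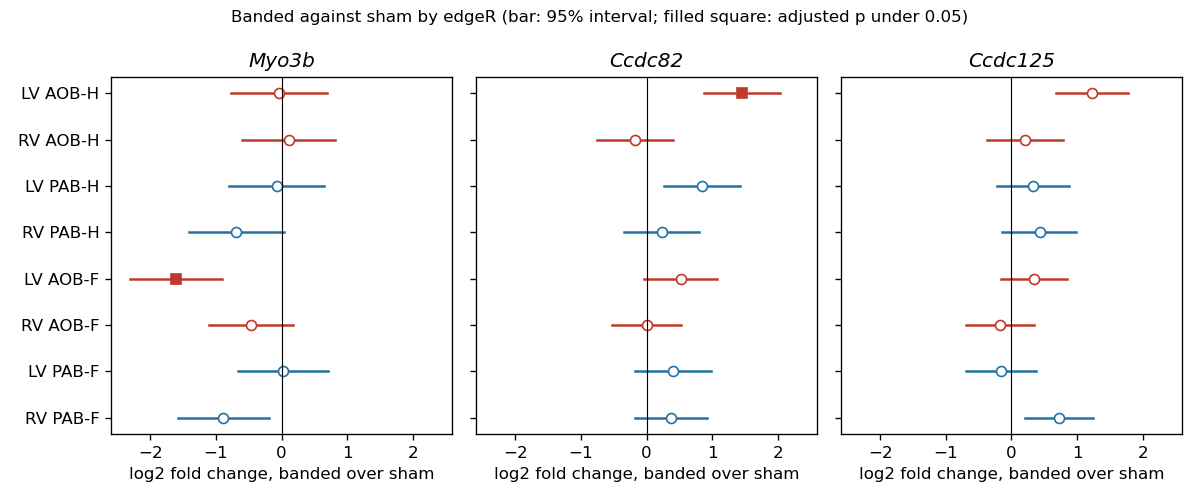
Log2 fold changes of the 3 genes in each banded group against sham of the same ventricle and stage, by edgeR, with 95% intervals; filled squares mark an adjusted p under 0.05. The 2 filled squares, *Myo3b* in LV AOB-F (-1.61) and *Ccdc82* in LV AOB-H (1.45), are comparisons that chose the gene.

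The order of all groups was different for both *Ccdc* genes. *Ccdc82* had its highest mean in LV AOB-H (76.8 ± 34.3), followed by RV PAB-H (53.5 ± 28.4), RV PAB-F (51.9 ± 14.7), LV PAB-H (49.8 ± 22.7), RV Sham-H (45.7 ± 11.3), RV AOB-H (40.6 ± 17.1), RV Sham-F (39.8 ± 2.58), RV AOB-F (39.8 ± 7.29), LV Sham-H (28.2 ± 15.3), LV AOB-F (25.3 ± 7.00), LV PAB-F (23.4 ± 5.11) and LV Sham-F (17.5 ± 5.76). The LV of older hearts thus held the 3 lowest means. *Ccdc125* began with LV AOB-H (92.3 ± 75.8), RV PAB-F (54.8 ± 10.8), LV PAB-H (48.8 ± 5.13), LV AOB-F (46.8 ± 17.6), RV PAB-H (40.6 ± 15.4) and LV Sham-H (39.1 ± 15.5), and went on with LV Sham-F (36.9 ± 9.25), RV AOB-H (35 ± 11.6), RV Sham-F (33 ± 10.1), LV PAB-F (33 ± 4.6), RV Sham-H (30.1 ± 9.03) and RV AOB-F (29.4 ± 12.8). Each step between neighbours was smaller than the larger SD of the pair, except the last step of *Ccdc82*, from LV PAB-F to LV Sham-F, which was slightly over it.

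Aortic and pulmonary banding were compared directly within a ventricle and stage. In the RV of failing hearts *Ccdc125* was lower upon AOB-F, where the RV is not loaded, at 25.0, 37, 29.7, 53.5, 20.6, 13.9 and 25.9, than upon PAB-F (46.6 to 75.5). Of 7 AOB-F libraries 6 lay below all PAB-F libraries, and the log2 difference was -0.90 (SE 0.28, edgeR adjusted p = 0.0495, 4.16% of all genes called). This call was lost with any of 9 of the 13 libraries left out (RV AOB-F replicates 1, 3, 5, 6 and 7, and RV PAB-F replicates 1, 2, 5 and 6), at adjusted p values up to 0.207 without PAB-F replicate 1, and the lowest adjusted p with 1 library left out was 0.0182. It was also lost with RLE factors (-0.89, adjusted p = 0.0521), with no filter on low counts (-0.85, adjusted p = 0.0705) and with the replicate number as a block (-0.81, adjusted p = 0.0767). *Myo3b* was 0.81 higher in RV AOB-H than in RV PAB-H (SE 0.38, edgeR adjusted p = 0.255, 0.167% of all genes called) and 0.42 higher in RV AOB-F than in RV PAB-F (SE 0.36, edgeR adjusted p = 0.533). *Ccdc82* differed by -0.41 and -0.38 in those pairs (SE 0.30 and 0.29), with edgeR adjusted p values of 0.508 and 0.469.

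In the LV the AOB libraries are those that chose the genes, so their differences from PAB are descriptions. *Myo3b* had a fold of 0.323 (log2 -1.63) in LV AOB-F against LV PAB-F, where 2.18% of all genes were called, and 6 of 7 AOB-F libraries lay below all PAB-F libraries. The value was -1.31 without LV PAB-F replicate 6, the highest at 477. *Ccdc125* in LV AOB-H lay above LV PAB-H (40.8 to 54.5) in all 6 libraries, a log2 difference of 0.90 that became 0.33 without replicate 6, and 0.0586% of all genes show such a separation upwards. For *Ccdc82* the difference was 0.62, with 3 of 6 libraries above all PAB-H libraries, and 0.35 without replicate 6. In LV AOB-H against LV PAB-H edgeR called 0% of all genes (485 at an unadjusted p under 0.05, and 0 by DESeq2). In LV AOB-F against LV PAB-F *Ccdc82* differed by 0.11 and *Ccdc125* by 0.50 (SE 0.30 and 0.28), with edgeR adjusted p values of 0.919 and 0.386.

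Responses of the LV and RV were subtracted in the same fit, RV change from LV change, on the log2 scale. Where the contrast that chose a gene is part of the difference, the value is a description without a test: -1.14 for *Myo3b* upon AOB-F, and 1.63 for *Ccdc82* and 1.02 for *Ccdc125* upon AOB-H. The LV response to AOB-F minus the RV response to PAB-F, that is, the loaded ventricle of either failing heart, was -0.72 for *Myo3b*, and 3.15% of all genes were called there. At the stage that did not choose the gene, *Myo3b* differed by -0.15 upon AOB-H (95% interval -1.17 to 0.87, edgeR adjusted p = 0.935) and by 0.62 upon PAB-H (SE 0.51, edgeR adjusted p = 0.700). *Ccdc82* and *Ccdc125* each differed by 0.52 upon AOB-F (SE 0.39 and 0.36, edgeR adjusted p = 0.651 and 0.634). Upon PAB-F they differed by 0.03 and -0.89 (SE 0.38 each, edgeR adjusted p = 0.977 and 0.322, 0.351% of all genes called). In the AOB-H, AOB-F and PAB-H differences edgeR called 0% of all genes (577, 1161 and 1104 at an unadjusted p under 0.05, and 0, 5 and 0 by DESeq2). None of these 6 tests passed, and of them only that of *Ccdc125* upon PAB-F had an unadjusted p under 0.05 (0.0214). These p values do not show that the ventricles respond alike.

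The responses of the LV to AOB at both stages share the libraries that chose the genes and are given without a test. On the log2 scale the response upon AOB-F minus that upon AOB-H was -1.57 for *Myo3b*, -0.94 for *Ccdc82* and -0.89 for *Ccdc125*. Without LV AOB-H replicate 6 these last values were -0.67 and -0.33. In the sham hearts, *Ccdc82* in the LV ranged from 7.24 to 50.9 (median 30.1) at stage H and from 9.83 to 25.1 (median 17.6) at stage F, a log2 difference of -0.66 in which the younger libraries are those that chose the gene and in which 57.4% of all genes were called. In the LV of older against younger sham hearts *Myo3b* differed by 0.39 and *Ccdc125* by -0.07, again with libraries that chose them. In the RV *Myo3b* differed by 0.50 (SE 0.33), *Ccdc82* by -0.20 (SE 0.26) and *Ccdc125* by 0.13 (SE 0.26), with an edgeR adjusted p of 0.999 for each and 0.0502% of all genes called.

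RV and LV of the same animal were set against each other next, since both libraries come from 1 heart. Their marker shares differed. In Sham-F cardiomyocyte genes took 11.5% to 14.3% of the counts in the RV and 8.53% to 10.3% in the LV. Endothelial genes took 0.0643% to 0.109% there in the RV and 0.197% to 0.359% in the LV. In Sham-H the endothelial share was 0.0755% to 0.109% in the RV and 0.109% to 0.295% in the LV. The part of these shares in the differences between the ventricles was not tested. *Myo3b* was higher in the RV in 37 of 41 animals, including all sham and all AOB animals, and the 4 exceptions were 1 PAB-H and 3 PAB-F animals. This count is a description, since it includes the Sham-F and AOB-F animals whose LV libraries chose the gene. In Sham-H the RV libraries were at 244 to 520 and the LV libraries at 69.8 to 298, a log2 difference of 1.01 (SE 0.35, edgeR adjusted p = 0.0315, 21% of all genes called). In AOB-H it was 1.16 (SE 0.38, edgeR adjusted p = 0.0418, 7.98% of all genes called). With the animal as a block these were 1.07 (adjusted p = 0.00174) and 1.22 (adjusted p = 0.0016), in fits that called 32.5% and 13.7% of all genes.

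Upon PAB the RV excess of *Myo3b* did not pass, with 0.39 in PAB-H (SE 0.38, edgeR adjusted p = 0.668, 0.125% of all genes called) and 0.21 in PAB-F (SE 0.37, edgeR adjusted p = 0.640, 61.1% of all genes called). The 6 PAB-F animals ran from an RV value of 44.3 with 281 in the LV to an RV value of 471 with 188 in the LV. In the stage F groups that chose the gene the RV excess was 1.12 in Sham-F and 2.26 in AOB-F, and 74.3% and 67.1% of all genes were called there. In Sham-F all RV libraries lay above all LV libraries, as in 22.4% of all genes in this direction. The LV minus the RV response to PAB-F, which shares the LV Sham-F libraries, was 0.91, and 1.16 with the animal as a block. The Sham-H call was lost without LV Sham-H replicate 4 or 5 or RV Sham-H replicate 1 or 2 (adjusted p 0.0621 to 0.119), and that in AOB-H without LV AOB-H replicate 3, 5 or 6 or RV AOB-H replicate 1, 2, 4 or 5 (adjusted p 0.051 to 0.205).

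**Figure D4:**
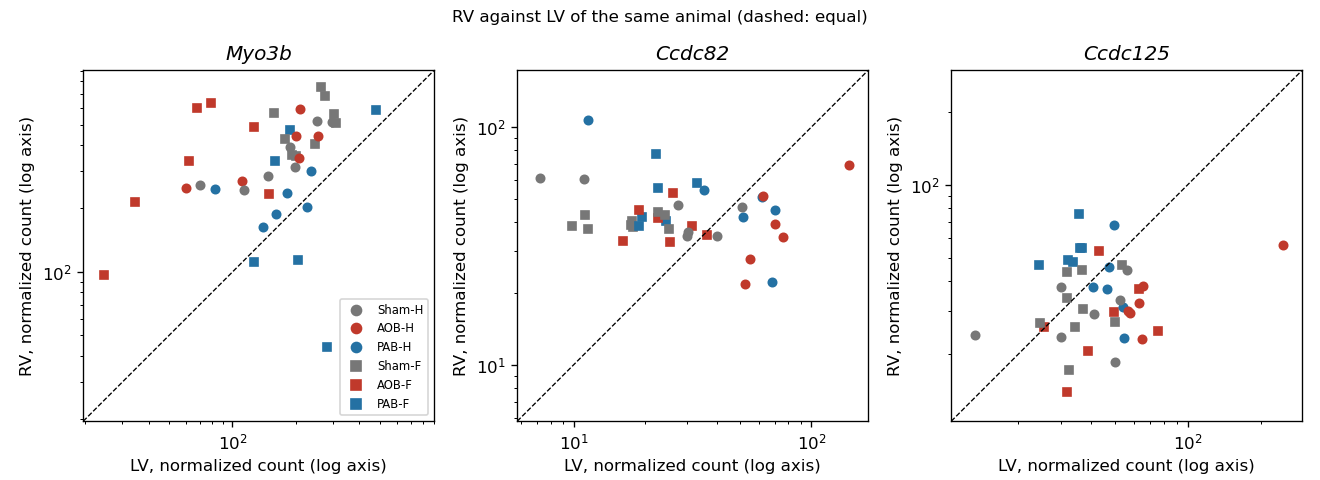
Normalized count in the RV against that in the LV of the same animal (log axes), with colours for the condition, circles for stage H, squares for stage F and a dashed line of equal values. *Myo3b* lies above the line in 37 of 41 animals, *Ccdc82* in 28 and *Ccdc125* in 15. These counts include animals whose LV libraries chose the genes (Sham-F and AOB-F for *Myo3b*, Sham-H and AOB-H for both *Ccdc* genes).

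*Ccdc82* was higher in the RV of all Sham-F and PAB-F animals and of 6 of 7 AOB-F animals. In Sham-F the RV was at 37.2 to 43.7 and the LV at 9.83 to 25.1, so that all 9 RV libraries lay above all 9 LV libraries, as in 22.4% of all genes in this direction. The log2 difference was 1.17 (SE 0.26, edgeR adjusted p = 4.67e-05). In PAB-F all 6 RV libraries (38.5 to 76.8) lay above all LV libraries (18.8 to 32.9), as in 13.9% of all genes, with a log2 difference of 1.14 (SE 0.31, edgeR adjusted p = 0.000971). In AOB-F it was 0.66 (SE 0.29, edgeR adjusted p = 0.0371), which did not pass with the animal as a block (0.67, adjusted p = 0.0564) nor without LV AOB-F replicate 3, 4 or 6 or RV AOB-F replicate 5 or 6 (adjusted p 0.0577 to 0.0868). Since most genes were called between the ventricles of older hearts, these calls do not set *Ccdc82* apart.

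At stage H *Ccdc82* stood otherwise, in groups of which most chose the gene. The LV was higher in 6 of 6 AOB-H animals (log2 RV minus LV -0.91), against 2 of 7 Sham-H animals (0.72) and 4 of 6 PAB-H animals (0.11, SE 0.30, edgeR adjusted p = 0.882). *Ccdc125* was also higher in the LV of 6 of 6 AOB-H animals (-1.38, and -0.81 without LV AOB-H replicate 6) in 5 of 7 Sham-H animals (-0.36) and in 5 of 6 PAB-H animals (-0.26, SE 0.29, edgeR adjusted p = 0.702). With the animal as a block *Ccdc82* went from -0.91 to -0.92 in AOB-H and from 0.72 to 0.82 in Sham-H.

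*Ccdc125* went in opposite directions in the 2 failing groups. In PAB-F it was higher in the RV in 6 of 6 animals (46.6 to 75.5 against 24.3 to 36.5, no overlap, as in 13.9% of all genes), with a log2 difference of 0.73 (SE 0.29, edgeR adjusted p = 0.0252, 61.1% of all genes called). In AOB-F it was higher in the LV in 5 of 7 animals, with -0.67 (SE 0.27, edgeR adjusted p = 0.0250, 67.1% of all genes called). With so many genes called, neither call sets *Ccdc125* apart. In Sham-F no difference passed (-0.16, 95% interval -0.64 to 0.32, edgeR adjusted p = 0.558). In both failing groups the mean was thus higher in the ventricle that carried the load. The PAB-F call was lost without LV PAB-F replicate 3 or RV PAB-F replicate 1 (adjusted p 0.061 and 0.0691), and the AOB-F call without LV AOB-F replicate 1 or 2 or RV AOB-F replicate 1, 5 or 6 (adjusted p 0.051 to 0.0941). With the animal as a block both calls held (adjusted p = 0.00519 and 0.00508).

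Sex was not used to choose the genes and both sexes were in every group. *Myo3b* had a higher mean in males in 8 of 12 groups, such as RV Sham-H (476 in 3 males and 276 in 4 females), and in females in 3. Over all groups the female minus male difference was -0.33 (SE 0.14, edgeR adjusted p = 0.101), at 17.2% of all genes called. In the sham libraries alone it was -0.45 and passed (adjusted p = 0.0480). For *Ccdc82* it was -0.05 (SE 0.12, edgeR adjusted p = 0.806) and for *Ccdc125* -0.18 (SE 0.12, edgeR adjusted p = 0.306). Sex is the same for both libraries of a rat, and these fits counted them as separate. The deviations of *Myo3b* correlated at 0.45 between RV and LV. Its SE and p values can thus be too small, also in the sham libraries alone. The share of males differed between groups (2 of 6 in AOB-H and 4 of 6 in PAB-H), and with sex as a covariate no banding call of *Myo3b* or *Ccdc82* changed, while *Ccdc125* in LV AOB-H moved from 1.23 to 1.26.

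The partners of *Myo3b* were looked up by name. *Myo3a*, the other class III myosin, is not analysed here, and *Espn*, which encodes the espin that class III myosins carry, had a median of 1 read and was at 0 in 29 libraries. *Espnl*, an espin-like gene, had a median of 28.5 reads and *Morn4*, whose product binds the tail of MYO3, of 59. In LV AOB-F they differed from sham by -0.22 (SE 0.26, edgeR adjusted p = 0.611) and -0.14 (SE 0.17, edgeR adjusted p = 0.616), beside -1.61 for *Myo3b*.

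Of 16 other unconventional myosins tested, motors that move membranes and vesicles along actin, 6 rose and 3 fell in LV AOB-F, where 8.54% of all genes rose and 4.35% fell (median 0.25, against 0.04 over all genes). The clearest by p were *Myo1f* (1.21, SE 0.26, edgeR adjusted p = 0.00157), a myosin of leukocytes, *Myo7b* (-1.22, SE 0.31, edgeR adjusted p = 0.00599), known from microvilli of the gut and kidney, *Myo16* in RV PAB-F (-1.25, SE 0.36, edgeR adjusted p = 0.0149) and *Myo1e* in RV PAB-F (0.39, SE 0.11, edgeR adjusted p = 0.0162). *Myo16* also fell in LV AOB-F (-1.03, SE 0.34, edgeR adjusted p = 0.0352). In RV PAB-F 1 of 16 rose and 1 fell, near the 7.66% and 3.42% of all genes that did (median 0.23, against 0.02 over all genes).

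Of 64 other genes with a *Ccdc* symbol, 1 rose and 2 fell in LV AOB-F, 1 rose in RV PAB-F and 1 in RV PAB-H. These counts lie below the shares over all genes, which were 8.54% up and 4.35% down in LV AOB-F, 7.66% up in RV PAB-F and 3.91% up in RV PAB-H. In LV AOB-H their median was 0.12, against 0.01 over all genes. The called ones were *Ccdc80*, which encodes a secreted matrix protein (0.86 in LV AOB-F, 0.87 in RV PAB-F and 1.14 in RV PAB-H, edgeR adjusted p = 0.0269, 0.0379 and 0.0220), *Ccdc63* (-1.39, edgeR adjusted p = 0.00465), named with the outer dynein arm, and *Ccdc22* (-0.37, edgeR adjusted p = 0.0207), a part of the endosomal CCC complex. Between the ventricles of Sham-F 34 of the 64 were higher in the RV and 16 lower, against 35.6% and 38.6% of all genes.

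The nearest genes on the chromosomes, by the order of starts in RefSeq, were looked up for each member. Near *Myo3b* lie *Ssb*, which encodes the RNA-binding La protein, *Mettl5*, an RNA methyltransferase, and *Gad1*, which makes the transmitter GABA, whose changes in LV AOB-F were 0.39, 0.13 and 0.26 (edgeR adjusted p = 0.363, 0.672 and 0.730). *Sp5* and *Erich2* had too few counts, and *Ubr3* is not analysed here. Both neighbours of *Ccdc82* that could be tested, *Jrkl* and the lipid phosphatase gene *Mtmr2*, had values of 0.46 and 0.17 in LV AOB-H (edgeR adjusted p = 0.268 and 0.575), *Cntn5* had too few counts, and *Maml2*, which overlaps *Ccdc82* on GRCr8, is not analysed here. Reads that fall on 2 genes were left out by the counting, so an overlap can lower a count. Near *Ccdc125*, *Taf9*, which encodes a subunit of the general factor TFIID, rose in LV AOB-F (0.73, SE 0.19, edgeR adjusted p = 0.00551), and *Mrps36* (*Kgd4* in RefSeq), a part of the oxoglutarate dehydrogenase complex, fell in RV PAB-F (-0.48, SE 0.15, edgeR adjusted p = 0.0323). *Ak6* and the checkpoint gene *Rad17* were at 0.38 and 0.33 in LV AOB-F (edgeR adjusted p = 0.245 and 0.129), and *Cdk7* and *Cenph* are not analysed here.

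Between the ventricles of Sham-F, by contrast, 8 of these 9 neighbours were higher in the RV and none lower, as *Myo3b* and *Ccdc82* were. *Ssb* was at 373 in the RV and 72.4 in the LV (2.37, SE 0.27, edgeR adjusted p = 2.49e-12), *Jrkl* at 95.2 and 30.6 (1.63, SE 0.22, edgeR adjusted p = 3.59e-10) and *Taf9* at 539 and 144 (1.91, SE 0.18, edgeR adjusted p = 6.58e-15). *Ccdc125* itself differed by -0.16 there. In this comparison 35.6% of all genes were called higher in the RV and 38.6% lower, so the count lies above the share over all genes. Whether it is particular to these loci was not tested, nor was the part of the marker shares, which differed between these ventricles as given above.

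The genes whose 12 group means ran most like those of each member were sought among 9448 genes with a mean normalized count over 50. These correlations share libraries and their depth and are descriptions only. For *Myo3b* the 5 most alike were *Pola2* (r = 0.96), *Nfyc* (0.95), *Gstz1* (0.94), *Cyth1* (0.94) and *Adam11* (0.94). *Gstz1*, which encodes an enzyme of tyrosine breakdown, also ranked first over the 82 single libraries (r = 0.88) and over their deviations from the group means (r = 0.78), whereas the other 4 fell to 0.28 to 0.40 in the deviations. *Gstz1* was at 331, 278, 319, 223, 363, 216 and 203 in LV AOB-F, against 302 to 555 in LV Sham-F, and the replicates with the lowest *Myo3b* in LV AOB-F (6 and 7) were also those with the lowest *Gstz1*. The most opposite genes were *Gnb1*, *Cndp2* and *Net1* (r = -0.96, -0.95 and -0.95).

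**Figure D5:**
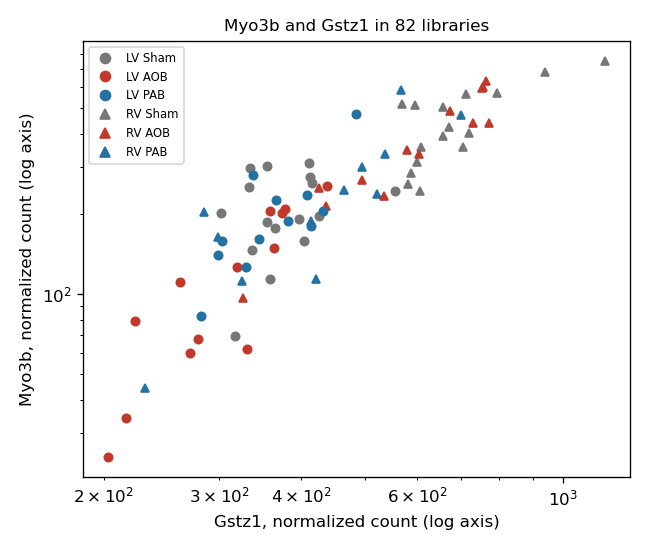
Normalized counts of *Myo3b* and *Gstz1* in the 82 libraries (log axes), with circles for LV, triangles for RV and colours for sham, AOB and PAB. Both genes run together over the libraries (r = 0.88 on the log2 scale), and the libraries lowest in *Myo3b* (24.5 and 34.4, both LV AOB-F) were at 203 and 216 in *Gstz1*.

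For *Ccdc82* the most alike genes were *Cenpj*, *Dennd6a*, *Parp2* and *Tgfbr1* (r = 0.96 each) and *Gnai1* (0.95). Among these 5, *Tgfbr1*, the type I receptor for TGF-beta, had the highest values over single libraries (0.86, ranked 4 of all) and deviations (0.72, ranked 32). The most opposite were *Kcng2*, *Btbd6* and *Pold4*, between -0.96 and -0.95. For *Ccdc125* they were *Tdrd7* (0.94), *Angpt2* (0.92), *Ogfrl1* (0.91), *Cttnbp2* (0.90) and *Akr1c14* (0.89), of which *Tdrd7* had 0.73 over libraries and 0.59 in the deviations and *Angpt2* is a ligand of the endothelial receptor TIE2. The most opposite were *Irx4*, the Iroquois gene of ventricular cardiomyocytes, *Fgf16* and *Kctd1* (-0.89, -0.88 and -0.88). Among the 3 members the group means of *Ccdc82* and *Ccdc125* correlated at 0.48 and the deviations at 0.34, those of *Myo3b* and *Ccdc125* at -0.57 and 0.11, and those of *Myo3b* and *Ccdc82* at 0.19 and -0.06.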

How the data were processed

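RNA from cardiomyocytes of the RV and LV was depleted of ribosomal RNA and sequenced as pairs. The authors trimmed reads with Trim Galore, aligned them with STAR to Rnor6.0 with a UCSC annotation and counted them per gene with featureCounts, leaving out reads on more than 1 gene. Whether strand was used is not given in the sources used here. The deposited raw counts were tested here. The deposited FPKM values, which scale counts to depth and gene length, were used only to set levels of genes side by side. The deposited normalized signal, the counts divided by DESeq2 (1.28.1) size factors by the authors, was not tested.

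Groups came from the labels, and the members and lists were chosen with earlier results of these data known. edgeR 4.0.16 in R 4.3.3 (TMM factors, filterByExpr, quasi-likelihood test, 12 group means over 82 libraries) was fitted to 11954 genes, with Benjamini-Hochberg adjustment over all of them and a threshold of 0.05. The test was checked on simulated data. Intervals are at 95%. Each rat gave 1 RV and 1 LV library, so the labels pair these samples by animal. Deviations from the group means correlated at a median of 0.22 within an animal and -0.05 between animals. Alternatives were DESeq2 1.42.0, RLE factors, no filter, only the groups compared, the study's 3 criteria, blocks, sex and leaving out each library. Named genes were the members, class III myosins and their partners, up to 4 called genes of each of 2 symbol lists, the 3 nearest genes on each side, and the 5 most alike and 3 most opposite genes.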

Additional observations from a re-analysis of the deposited data

Results flagged for a closer look

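Of 36 gene and group values looked at, 4 held a library far from the others, where chance flags about 1 in 20. Whether 4 is more than chance gives was not tested. In LV AOB-H replicate 6 was at 144 normalized counts in *Ccdc82* (the nearest library at 75.9) and at 247 in *Ccdc125* (65.3). In *Ccdc125*, replicate 3 of LV PAB-F was low at 24.3 (32.1) and replicate 1 of RV PAB-F was high at 75.5 (55). *Ccdc125* also differed in direction between the ventricles upon PAB-F, and the LV minus RV response was -0.89 (unadjusted p = 0.0214, edgeR adjusted p = 0.322 over all genes), which did not pass.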

How the results depend on the processing

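Under other settings 479 results kept direction and side of the threshold, while 9 no longer passed, 8 newly passed and 6 turned. With 1 library left out these numbers were 1578, 54, 8 and 49. The cause of the changes was not tested, beyond that leaving out libraries or groups leaves fewer samples. Where a comparison uses libraries that chose the gene, passing or not is no evidence on it. Of these, *Ccdc82* in LV AOB-H was 1.46 with only the groups compared and 1.42 with the replicate number as a block (neither passing), and -0.61 in LV Sham-F against Sham-H with that block (not passing). *Ccdc125* in LV AOB-H was 1.23 by DESeq2, 1.23 by the study's 3 criteria and 1.26 with sex as a covariate (all past the threshold). *Ccdc82* RV against LV was -0.92 in AOB-H with the animal as a replicate block (not passing), and 0.82 with that block and 0.73 by DESeq2 in Sham-H (both passing). *Myo3b* in LV PAB-F turned to -0.16 with the number block and -0.02 with sex as a covariate, and the *Ccdc125* LV minus RV response to PAB-H to 0 with the animal block and 0.01 with no filter. Of the others, the animal block ended the call of *Ccdc82* RV against LV in AOB-F (0.67, adjusted p = 0.0564) and turned *Myo3b* in PAB-F to -0.05, and it changed no other call. Banded and sham libraries share only a number (median correlation 0.08). *Ccdc125* in RV AOB-F against PAB-F did not pass with the number block (-0.81), RLE factors (-0.89) or no filter (-0.85), nor did *Myo3b* RV against LV in AOB-H with no filter (1.14). *Myo3b* in LV AOB-H went to 0 with sex as a covariate. With only the groups compared, *Myo3b* in RV PAB-H (-0.70) and *Ccdc125* in RV PAB-F (0.73) passed, and the sex difference of *Myo3b* passed when taken from the sham libraries alone (-0.45). That sex difference counts both libraries of a rat as separate, so its p value can be too small. With 1 library left out, the log2 values of *Myo3b* that changed a call or sign ran from -1.87 to -1.31 in LV AOB-F vs LV PAB-F, -0.11 to 0.21 in LV AOB-H vs LV PAB-H, 0.99 to 1.30 in RV AOB-H vs LV AOB-H, -0.15 to 0.53 in RV PAB-F vs LV PAB-F, 0.88 to 1.18 in RV Sham-H vs LV Sham-H, -0.18 to 0.14 in LV AOB-H vs LV Sham-H, -0.30 to 0.15 in LV PAB-F vs LV Sham-F, -0.21 to 0.09 in LV PAB-H vs LV Sham-H, -0.05 to 0.22 in RV AOB-H vs RV Sham-H, -1.25 to -0.67 in RV PAB-F vs RV Sham-F, -0.29 to 0.03 in LV minus RV response to AOB-H, -0.22 to 0.25 in LV response to PAB-F minus PAB-H, -0.56 to 0.03 in RV response to PAB-F minus PAB-H. With 1 library left out, the log2 values of *Ccdc82* that changed a call or sign ran from 0.57 to 0.76 in RV AOB-F vs LV AOB-F, -1.12 to -0.65 in RV AOB-H vs LV AOB-H, -0.21 to 0.27 in RV PAB-H vs LV PAB-H, 0.55 to 0.93 in RV Sham-H vs LV Sham-H, 1.19 to 1.66 in LV AOB-H vs LV Sham-H, -0.09 to 0.04 in RV AOB-F vs RV Sham-F, -0.09 to 0.39 in RV PAB-H vs RV Sham-H, -0.85 to -0.45 in LV Sham-F vs LV Sham-H, -0.09 to 0.17 in LV minus RV response to PAB-F, -0.01 to 0.47 in RV response to PAB-F minus PAB-H. With 1 library left out, the log2 values of *Ccdc125* that changed a call or sign ran from -1.11 to -0.78 in RV AOB-F vs RV PAB-F, -0.87 to -0.52 in RV AOB-F vs LV AOB-F, -1.56 to -0.81 in RV AOB-H vs LV AOB-H, 0.62 to 0.77 in RV PAB-F vs LV PAB-F, 0.67 to 1.37 in LV AOB-H vs LV Sham-H, 0.61 to 0.80 in RV PAB-F vs RV Sham-F, -0.24 to 0.02 in LV Sham-F vs LV Sham-H, -0.25 to 0.12 in LV minus RV response to PAB-H.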
